A study of Mus musculus with 2 samples.

Results

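The constitutive proteasome genes were compared between mouse primary hepatocytes made to express the transcription factor KLF14 and control hepatocytes. The members were selected on their gene symbols: every row typed as mRNA whose symbol begins with Psma to Psmg and a number, leaving out Psmb8, Psmb9, Psme1 and Psme2. This gave 45 of the 35129 gene symbols in the files. The set was proposed because its members had been seen to be slightly higher together in these same libraries, so its overall direction and every ratio below are a description and were not tested. The cells came from C57BL/6 mice and were infected with an adenovirus. In the group Ad-KLF14 it carried KLF14, and in the control group Ad-GFP it is named for GFP, while the series' design text calls the control an empty vector. Each group holds 1 library, of 11151711 reads in Ad-KLF14 and 11311344 reads in Ad-GFP as recovered from the values. The design text speaks of triplicates, but whether a library pools them is not given in the sources used here. That text also names retina, which no sample label does, so it may not describe these samples throughout. Values are FPKM, reads scaled to gene length and to library size. Levels are compared between genes on these values, although the gene models and the counting rule behind them are not given.

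The proteasome degrades proteins that have been tagged with ubiquitin. Its barrel-shaped core is built of alpha rings, whose tails gate the entrance, around beta rings that hold the proteolytic sites. A regulatory particle docks on the core, and within it a ring of ATPases unfolds the substrate while other subunits bind and remove ubiquitin. Dedicated chaperones assemble both parts and do not stay in the finished particle. In liver cells, which make and turn over large amounts of protein, the constitutive form predominates, and interferon replaces its catalytic subunits with induced counterparts.

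Of the 45 members, 43 averaged 1 FPKM or more across the pair of libraries. The testis form of an alpha subunit, Psma8, stood at 0.530 FPKM in Ad-KLF14 and 0.313 FPKM in Ad-GFP, and the thymus subunit Psmb11 was listed at 0 in both. The 43 kept members were 15 core genes, 17 regulatory particle genes, 7 assembly genes, 3 genes of activators and an inhibitor, and Psmc3ip. The symbol rule takes in Psmc3ip although its product is a recombination factor and no proteasome subunit, and it also takes in Psmb10, an interferon-induced catalytic subunit.

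The overexpressed Klf14 itself was at 13164 FPKM in Ad-KLF14 and 0.298 FPKM in Ad-GFP. The hepatocyte label was set against its markers, with 9 of 9 measured hepatocyte markers kept and albumin, Alb, at 4172 FPKM in Ad-KLF14 and 5115 FPKM in Ad-GFP. Hnf4a was higher in Ad-KLF14, at 34.1 FPKM against 26.2 FPKM in Ad-GFP, as was Apob, at 140.0 FPKM against 122 FPKM. The rest were lower in Ad-KLF14. Cps1 had the lowest level, 2.80 FPKM in Ad-KLF14 and 4.91 FPKM in Ad-GFP. Summed macrophage markers were at 183 FPKM in Ad-KLF14 and 115 FPKM in Ad-GFP, of which Cd68 made up 160.3 FPKM in Ad-KLF14 and 71.1 FPKM in Ad-GFP. The 4 endothelial markers summed to 3.85 FPKM in Ad-KLF14 and 2.85 FPKM in Ad-GFP. The stellate cell markers and the lymphocyte markers each summed to under 2 FPKM in both libraries, with the lymphocyte genes Cd3e and Nkg7 listed at 0 in both. Of the 5 macrophage markers measured, 4 were kept, and Mpeg1 went the other way, at 17.1 FPKM in Ad-KLF14 and 40.1 FPKM in Ad-GFP. In bulk RNA, fewer cells of a type and less RNA per cell cannot be told apart, and the part of other cells in the proteasome values was not tested.

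Of the 32 core and regulatory particle genes 20 had a log2 ratio above 0, 8 of 15 in the core and 12 of 17 in the regulatory particle, while 5 of the 7 assembly genes were below 0. Over the 43 members the median log2 ratio, taken as Ad-KLF14 minus Ad-GFP after adding 1 to each FPKM, was 0.10. Over all 12419 genes kept by the same filter it was −0.03, and 48.3% of these had a log2 ratio above 0. By class, the median log2 ratio was 0.06 for the core, 0.25 for the regulatory particle and −0.41 for the assembly genes. With Psmb8 and Psmb9 counted in, the core median turned to −0.041. Scaling moved it the other way, to 0.11 after scaling to a fixed sum and 0.17 after removal of a running median along expression, which also put the median of all members at 0.21. The sum of FPKM over the 15 core genes was 2278 in Ad-KLF14 and 2064 in Ad-GFP, a ratio of 1.10 (95% counting interval 1.08 to 1.12). The sum over the 17 regulatory particle genes was 2653 in Ad-KLF14 and 2299 in Ad-GFP, a ratio of 1.15 (1.14 to 1.17). The 7 assembly genes summed to 222 FPKM in Ad-KLF14 and 269.9 FPKM in Ad-GFP, a ratio of 0.824 (0.784 to 0.866). These intervals cover the error of counting reads only and say nothing of the spread between cultures.

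Of the 43 members 26 had a log2 ratio above 0, and 48.3% of all kept genes did. Among the 8315 genes within the members' range of mean level, 6.43 to 534 FPKM, the share was 49.7% and the median log2 ratio −0.0047. With 1 added to each FPKM, 4 members were higher by 1.5-fold or more in Ad-KLF14 (16.7% of all genes) and 3 were lower by as much (20.9% of all genes), and 36 lay within 1.5-fold. At 2-fold, 0 members were higher (6.37% of all genes) and 2 lower (8.99% of all genes). The counting interval of the FPKM ratio lay above 1 for 23 members (33.3% of all genes) and below 1 for 9 members (37.2% of all genes), and it held 1 for 11. Psmc3ip, which is no proteasome subunit, counts among the 26 and among the 4. With Psmc3ip, Psmb10 and Psmb11 left out, 25 members had a log2 ratio above 0 and 3 were higher by 1.5-fold or more. Since the members were proposed from this comparison, nothing is read from these counts and shares.

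**Figure D1:**
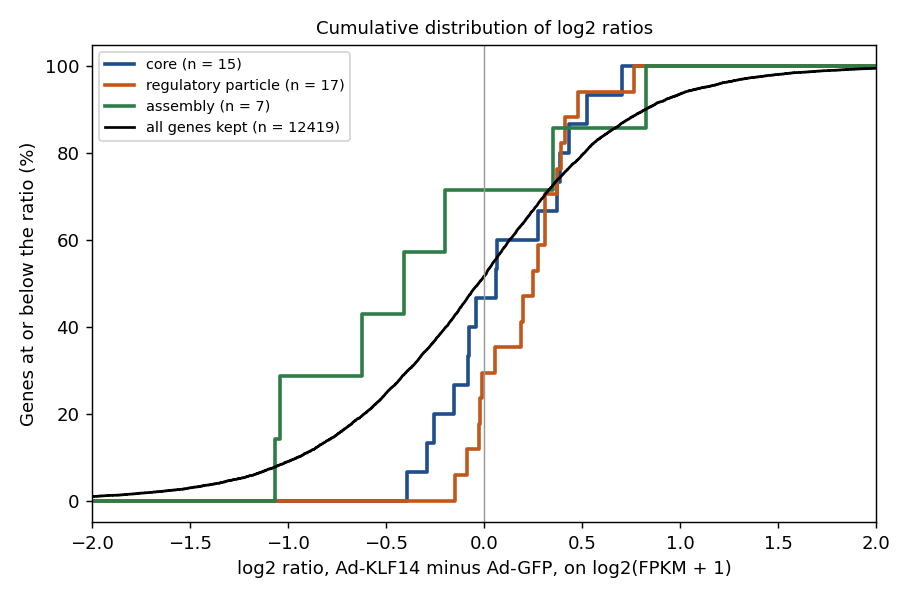
Cumulative share of genes (percent, vertical axis) by log2 ratio, as Ad-KLF14 minus Ad-GFP with 1 added to each FPKM (horizontal axis), for the core, regulatory particle and assembly genes and for all 12419 genes kept. The regulatory particle line crosses its median at 0.25, to the right of all genes at −0.03, and the assembly line crosses its median to the left, at −0.41.

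Within the core, the alpha ring genes went both ways. The entrance ring is formed by 7 different alpha subunits, and 3 of their genes were above 0 and 4 below, with a median log2 ratio of −0.04. Over all genes kept, 48.3% were above 0 and the median was −0.03. Psma5 differed most, at 119 FPKM in Ad-KLF14 and 72.6 FPKM in Ad-GFP, a 1.64-fold ratio (counting interval 1.51 to 1.77). Psma2 was at 179 FPKM in Ad-KLF14 and 138 FPKM in Ad-GFP, a ratio of 1.30 (1.21 to 1.39). Psma4 was the other alpha gene whose interval left out 1, at 148 FPKM in Ad-KLF14 and 164 FPKM in Ad-GFP (ratio 0.900, interval 0.844 to 0.959).

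The remaining alpha genes lay close together in both libraries. Psma1 was at 184 FPKM in Ad-KLF14 and 176 FPKM in Ad-GFP, Psma6 at 179.9 FPKM in Ad-KLF14 and 185 FPKM in Ad-GFP, and Psma7 at 160.0 FPKM in Ad-KLF14 and 169 FPKM in Ad-GFP. Their intervals all held 1. Psma3 stood apart by its level, at 27.8 FPKM in Ad-KLF14 and 33.3 FPKM in Ad-GFP, while the other 6 alpha genes ranged from 119 to 184 FPKM in Ad-KLF14 and from 72.6 to 185 FPKM in Ad-GFP. From at least 74 and 90 reads its ratio of 0.834 had the widest interval of the core (0.605 to 1.15), which held 1. These reads go with a gene length of 239 bases, while the longest reference transcript has 2846. The true reads may be a multiple of these and the interval narrower, so whether Psma3 differed beyond counting error is open.

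The 7 genes of the constitutive beta ring, whose proteins form the inner chamber, had a median log2 ratio of 0.28, with 5 above 0. All genes kept had a median of −0.03, with 48.3% above 0. Whether the 2 rings differ was not tested. Psmb3 was at 188 FPKM in Ad-KLF14 and 130.4 FPKM in Ad-GFP (ratio 1.44, interval 1.33 to 1.56), and Psmb2 was at 177 FPKM in Ad-KLF14 and 130.5 FPKM in Ad-GFP (ratio 1.35, interval 1.26 to 1.46). Psmb4 had the highest level of the core, 279 FPKM in Ad-KLF14 and 229.9 FPKM in Ad-GFP (ratio 1.21, interval 1.15 to 1.28). These 3 subunits, like Psmb1, have no active site. Psmb1 was at 148 FPKM in Ad-KLF14 and 156 FPKM in Ad-GFP, and its interval of 0.887 to 1.01 held 1.

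The 3 constitutive catalytic genes did not move as a block. Psmb6, which carries the caspase-like site, was at 166 FPKM in Ad-KLF14 and 127 FPKM in Ad-GFP (ratio 1.31, interval 1.22 to 1.40). Psmb7, with the trypsin-like site, was at 179 FPKM in Ad-KLF14 and 171 FPKM in Ad-GFP (ratio 1.04, interval 0.979 to 1.11). Psmb5, with the chymotrypsin-like site that proteasome inhibitor drugs bind, was lower, at 118 FPKM in Ad-KLF14 and 145 FPKM in Ad-GFP (ratio 0.815, interval 0.754 to 0.882). Psmb6 thus lay above 1 and Psmb5 below 1 beyond counting error in these libraries, while the Psmb7 interval held 1. The place of Psmb7 depends on scaling. Its log2 ratio was 0.061 as given and 0.17 after removal of a running median along expression. Their summed level was 463 FPKM in Ad-KLF14 and 443 FPKM in Ad-GFP.

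Their interferon-induced counterparts were lower with Ad-KLF14. Psmb10, which replaces Psmb7, was the lowest of the core by ratio, at 26.8 FPKM in Ad-KLF14 and 35.6 FPKM in Ad-GFP (ratio 0.753, interval 0.658 to 0.862). Of the genes that the rule leaves out, Psmb8, the counterpart of Psmb5, was at 42.7 FPKM in Ad-KLF14 and 85.1 FPKM in Ad-GFP, and Psmb9, the counterpart of Psmb6, at 18.7 FPKM in Ad-KLF14 and 41.5 FPKM in Ad-GFP. The induced genes together made up 16.0% of the summed FPKM of all 6 catalytic genes in Ad-KLF14 and 26.8% in Ad-GFP. This share moved with the induced genes, whose sum was 88.2 FPKM in Ad-KLF14 and 162 FPKM in Ad-GFP.

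**Figure D2:**
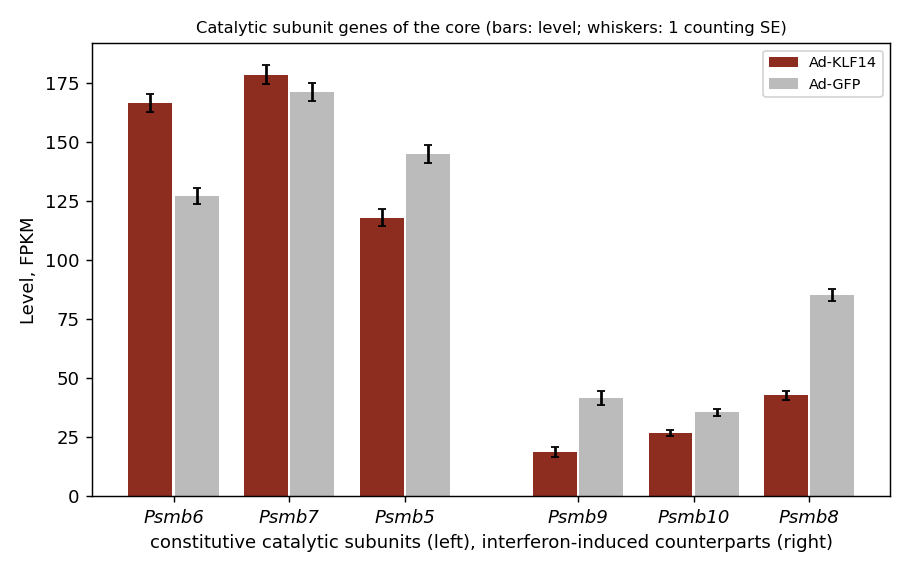
Level in FPKM (vertical axis, from 0) of the constitutive catalytic genes Psmb6, Psmb7 and Psmb5 and of their interferon-induced counterparts Psmb9, Psmb10 and Psmb8, in Ad-KLF14 and Ad-GFP, 1 library each, with whiskers of 1 standard error from read counting. All 3 induced genes are lower in Ad-KLF14, while Psmb6 is higher, Psmb7 close and Psmb5 lower.

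Of the 17 regulatory particle genes 12 were above 0 on the log2 ratio, and the counting interval lay above 1 in 12 and below 1 in 1. Over all genes kept, 48.3% were above 0, and the interval lay above 1 in 33.3% and below 1 in 37.2%. Those genes include many of lower level, where intervals tend to be wider. Among the 6 ATPase genes, whose proteins form the unfolding ring, Psmc1 was at 224 FPKM in Ad-KLF14 and 168 FPKM in Ad-GFP (ratio 1.33, interval 1.27 to 1.40). Psmc4 was at 137 FPKM in Ad-KLF14 and 106 FPKM in Ad-GFP, a ratio of 1.30 (interval 1.22 to 1.38). Psmc3 and Psmc2 had ratios of 1.24 and 1.15, and both intervals lay above 1. Psmc5 and Psmc6 lay at 89.4 and 90.0 FPKM in Ad-KLF14 and at 94.9 and 90.6 FPKM in Ad-GFP, and their intervals held 1.

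Among the 11 non-ATPase genes, Psmd13 differed most, at 169 FPKM in Ad-KLF14 and 99.5 FPKM in Ad-GFP (ratio 1.70, interval 1.60 to 1.81). Its product belongs to the lid, the part of the regulatory particle that removes ubiquitin chains. The lid genes Psmd3 (ratio 1.40, interval 1.32 to 1.48), Psmd6 (ratio 1.32), Psmd7 (ratio 1.24) and Psmd12 (ratio 1.19) followed. Psmd14, the deubiquitinase of the lid, was at 118 FPKM in Ad-KLF14 and 96.9 FPKM in Ad-GFP (ratio 1.21, interval 1.14 to 1.30). Of 8 lid genes 7 were above 0, with Psmd11 at 99.7 FPKM in Ad-KLF14 and 101 FPKM in Ad-GFP as the exception. Over all genes kept, 48.3% were above 0. The lid was split off after the values were seen, so nothing is read from its count.

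Psmd8, also of the lid, had by far the highest level of all members, 544 FPKM in Ad-KLF14 and 524 FPKM in Ad-GFP (ratio 1.04, interval 1.01 to 1.07). Without it the summed ratio of the regulatory particle was 1.19 (interval 1.17 to 1.21). The scaffold genes of the base were not higher. Psmd2 was at 138 FPKM in Ad-KLF14 and 154 FPKM in Ad-GFP (ratio 0.900, interval 0.865 to 0.936), the lowest ratio of the class. Psmd1, with the lowest mean level of the class, was at 81.9 FPKM in Ad-KLF14 and 83.3 FPKM in Ad-GFP (ratio 0.983, interval 0.934 to 1.03). The ubiquitin receptor gene Psmd4 was at 161 FPKM in Ad-KLF14 and 142 FPKM in Ad-GFP (ratio 1.14, interval 1.04 to 1.24). The median log2 ratio was 0.29 over the 8 lid genes and 0.19 over the 9 genes of the base, counted as the ATPases with Psmd1, Psmd2 and Psmd4.

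**Figure D3:**
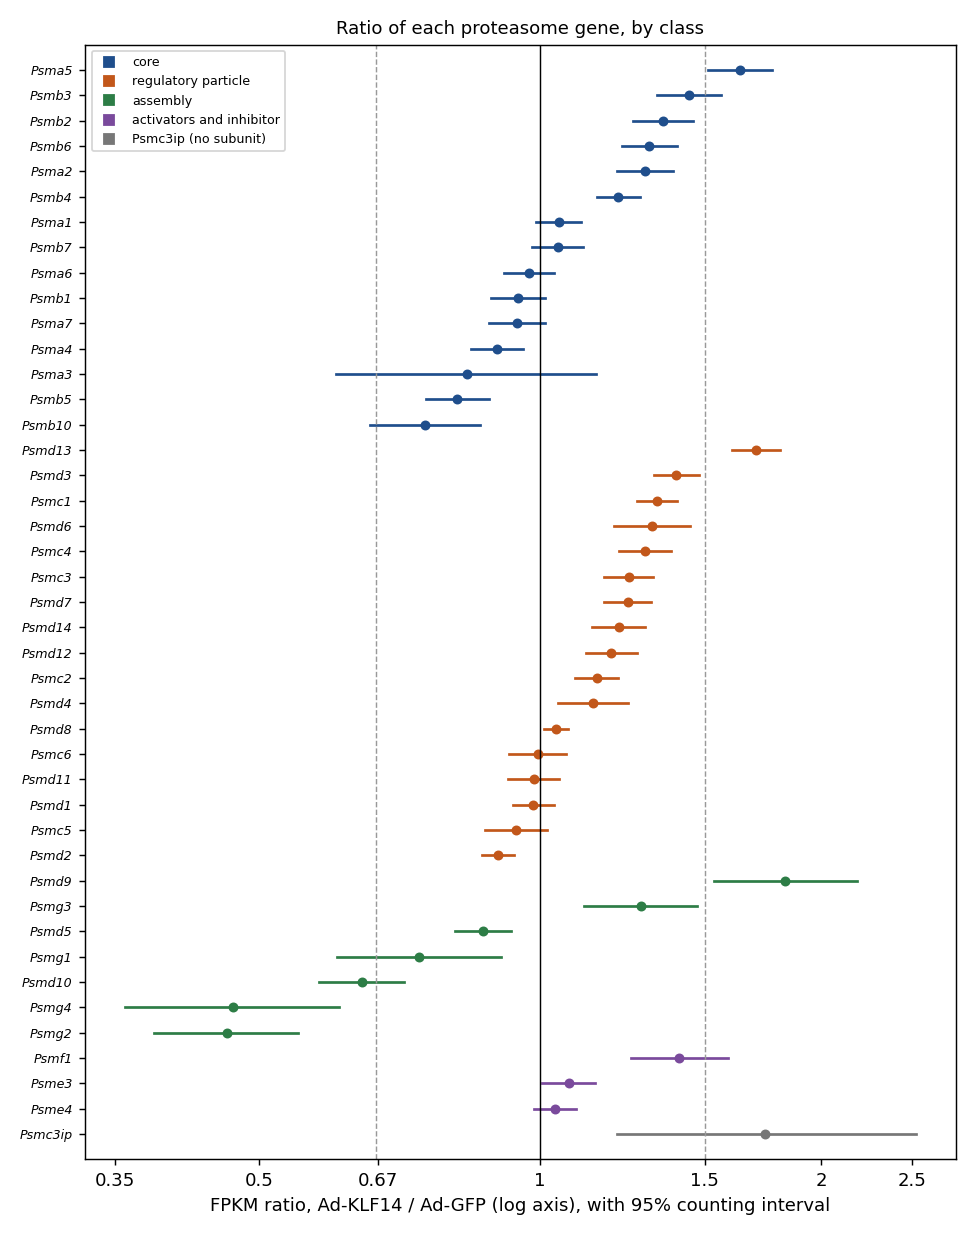
FPKM ratio of Ad-KLF14 over Ad-GFP (horizontal log axis) for each of the 43 members, grouped by class and sorted within it, with bars for the 95% counting interval and dashed lines at 1.5-fold. Most regulatory particle genes sit between 0.900 and 1.40 with Psmd13 at 1.70, and the assembly genes span from 0.461 for Psmg2 to 1.83 for Psmd9.

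The assembly genes were the most scattered class and included the members with the lowest ratios. The chaperones of the core act in pairs, Psmg1 with Psmg2 and Psmg3 with Psmg4. Psmg2 was at 15.7 FPKM in Ad-KLF14 and 34.1 FPKM in Ad-GFP, 2.17-fold lower (interval 1.82 to 2.59). Its partner Psmg1, with the lowest mean level of the class, was at 15.6 FPKM in Ad-KLF14 and 21.0 FPKM in Ad-GFP, 1.35-fold lower (interval 1.10 to 1.65). In the second pair the partners went opposite ways. Psmg4 was at 14.3 FPKM in Ad-KLF14 and 30.4 FPKM in Ad-GFP, 2.13-fold lower (interval 1.64 to 2.79), while Psmg3 was at 49.3 FPKM in Ad-KLF14 and 38.5 FPKM in Ad-GFP, a ratio of 1.28 (interval 1.11 to 1.47).

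The chaperones of the ATPase ring also diverged. Psmd9 had the highest ratio of all members, at 25.3 FPKM in Ad-KLF14 and 13.8 FPKM in Ad-GFP (ratio 1.83, interval 1.54 to 2.18). Psmd10, which encodes gankyrin, was at 35.7 FPKM in Ad-KLF14 and 55.4 FPKM in Ad-GFP, 1.55-fold lower (interval 1.40 to 1.73). Psmd5, with the highest level of the class, was at 66.6 FPKM in Ad-KLF14 and 76.7 FPKM in Ad-GFP, 1.15-fold lower (interval 1.07 to 1.23). All 7 assembly genes had intervals that left out 1, 2 above it and 5 below. Over all genes kept, the interval lay above 1 in 33.3% and below 1 in 37.2%, so most genes had intervals that left out 1. The maturation factor gene Pomp, which the symbol rule does not take in, was at 148 FPKM in Ad-KLF14 and 129 FPKM in Ad-GFP (ratio 1.15, interval 1.06 to 1.25), so the chaperone genes did not share 1 direction.

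Among activators and the inhibitor, Psmf1 differed most. It encodes a protein that inhibits the isolated core and was at 33.2 FPKM in Ad-KLF14 and 23.6 FPKM in Ad-GFP (ratio 1.41, interval 1.25 to 1.59). The nuclear activator gene Psme3 was at 64.1 FPKM in Ad-KLF14 and 59.8 FPKM in Ad-GFP (ratio 1.07, interval 1.01 to 1.15), and Psme4, a large activator, at 40.4 FPKM in Ad-KLF14 and 38.9 FPKM in Ad-GFP (ratio 1.04, interval 0.985 to 1.09). By contrast, the interferon-induced activator genes left out by the rule were lower, Psme1 at 35.4 FPKM in Ad-KLF14 and 136 FPKM in Ad-GFP (3.85-fold lower, interval 3.44 to 4.32) and Psme2 at 57.6 FPKM in Ad-KLF14 and 74.2 FPKM in Ad-GFP. The Psme2 value is uncertain, since the pseudogene Psme2b-ps had nearly the same levels, 60.1 FPKM in Ad-KLF14 and 75.7 FPKM in Ad-GFP. Psmc3ip was at 8.17 FPKM in Ad-KLF14 and 4.70 FPKM in Ad-GFP (ratio 1.74, interval 1.21 to 2.53). Its exons share 385 bases with Mlx on the opposite strand, and Mlx was at 31.1 FPKM in Ad-KLF14 and 13.0 FPKM in Ad-GFP. Whether counting used the strand is not given, so the Psmc3ip value is uncertain.

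Levels per length showed the same layout in both libraries. The median level was 166 FPKM in Ad-KLF14 and 145 FPKM in Ad-GFP for core genes, and 137 FPKM in Ad-KLF14 and 106 FPKM in Ad-GFP for regulatory particle genes. For assembly genes it was 25.3 FPKM in Ad-KLF14 and 34.1 FPKM in Ad-GFP. Summed FPKM of assembly genes amounted to 9.76% of that of the core in Ad-KLF14 and 13.1% in Ad-GFP, and the regulatory particle sum was 1.16 times the core sum in Ad-KLF14 and 1.11 times in Ad-GFP. Within the 14 alpha and beta genes without Psmb10, the coefficient of variation of the levels was 33.7% in Ad-KLF14 and 33.2% in Ad-GFP. Across the 43 members the order of levels was alike in both libraries, with a Spearman correlation of 0.92 over genes that share their gene models and libraries and are no independent replicates. All members together held 1.11% of the summed FPKM in Ad-KLF14 and 0.963% in Ad-GFP.

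**Figure D4:**
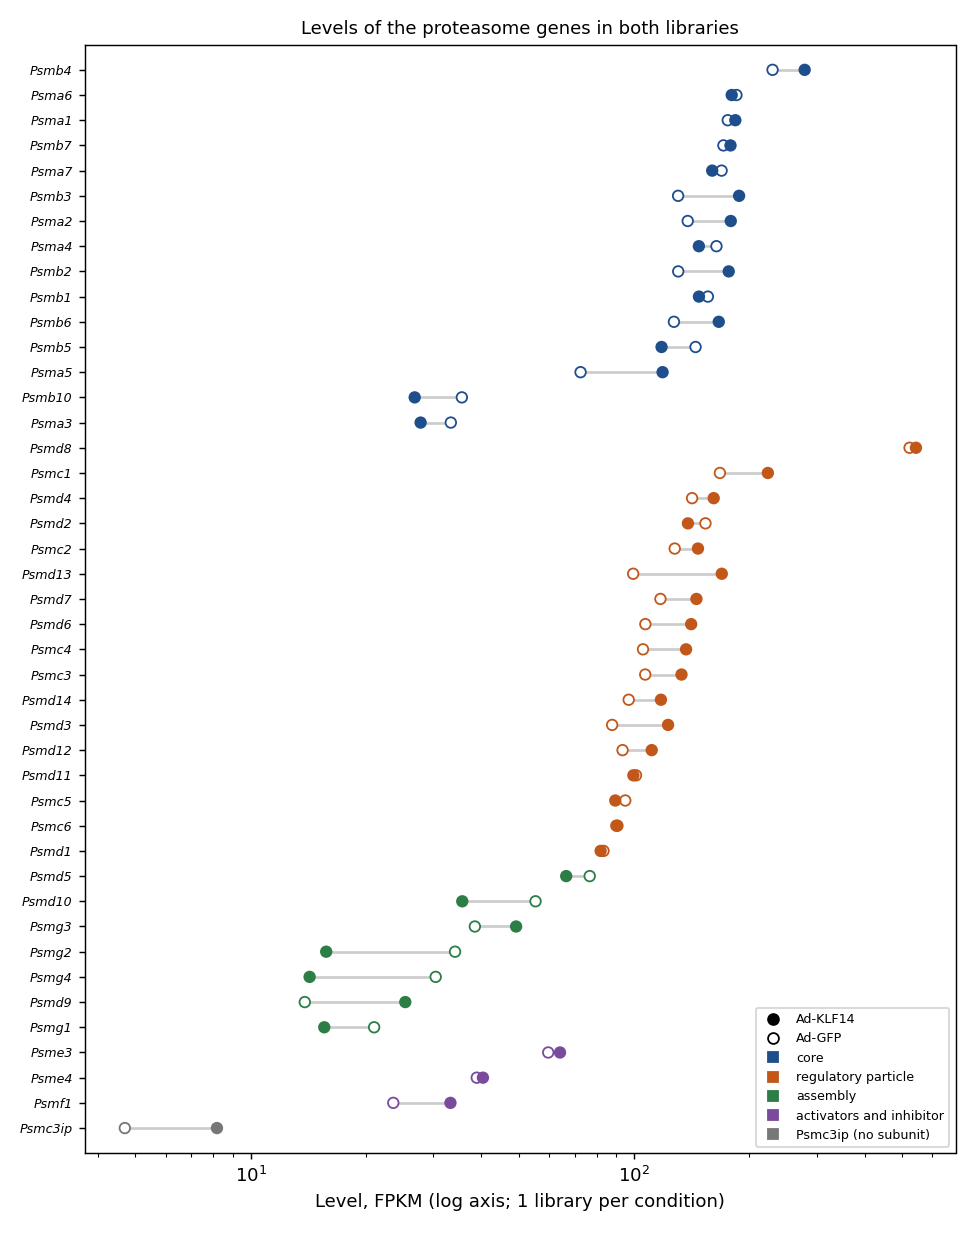
Level in FPKM (horizontal log axis) of the 43 kept members in Ad-KLF14 (filled points) and Ad-GFP (open points), 1 library each, coloured by class and sorted by mean level within it. Core and regulatory particle genes lie mostly between 70 and 280 FPKM, with Psmd8 above and Psma3 and Psmb10 below that range, and assembly genes lie below 80 FPKM.

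Other genes of the pathway, taken from lists on ubiquitin, shuttle factors, accessory proteins and transcription control, were mixed. Apart from the interferon-induced genes, 39 were kept, of which 22 had a log2 ratio above 0, against 48.3% of all genes. With 1 added to each FPKM, 4 were higher by 1.5-fold or more in Ad-KLF14 and 8 were lower by as much, against 16.7% and 20.9% of all genes. Zfand2a, an arsenite- and heat-inducible protein that binds the proteasome, was at 218 FPKM in Ad-KLF14 and 78.4 FPKM in Ad-GFP (ratio 2.78, interval 2.61 to 2.96). Akirin2, needed for nuclear import of proteasomes, had a ratio of 1.55 and Ufd1l, a cofactor of the p97 segregase, a ratio of 1.65. The ubiquitin receptor gene Adrm1, a further subunit of the base, was at 53.7 FPKM in Ad-KLF14 and 36.8 FPKM in Ad-GFP (ratio 1.46, interval 1.31 to 1.62).

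Of 10 kept receptors, deubiquitinases and other proteins of the regulatory particle, 7 had a log2 ratio above 0. Of 12 kept shuttle factors and p97 genes 7 did, and the list medians were 0.18 and 0.03. Over all genes kept, the share above 0 was 48.3%. The deubiquitinase gene Uchl5 had a ratio of 1.24 (interval 1.06 to 1.45). Usp14, a deubiquitinase that binds the regulatory particle, was at 24.3 FPKM in Ad-KLF14 and 38.8 FPKM in Ad-GFP (ratio 0.626, interval 0.580 to 0.674), and the proteasome-bound ligase gene Ube3c had a ratio of 0.499. Of the shuttle factors, Ubqln2 and Ubqln4 had ratios of 0.540 and 0.479, while Ubqln1 had a ratio of 1.28 and Ddi2, a protease that activates Nfe2l1, a ratio of 1.26 (interval 1.21 to 1.31). The second ubiquitin-activating enzyme gene, Uba6, had a ratio of 0.534.

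Among genes for transcription factors known to act on proteasome promoters and their partners, Nfe2l2 and Mafk had ratios further from 1 than any member. Nfe2l1, which raises proteasome gene transcription when proteasomes are impaired, was at 19.7 FPKM in Ad-KLF14 and 31.7 FPKM in Ad-GFP (ratio 0.621, interval 0.555 to 0.694). The related Nfe2l2 was at 67.8 FPKM in Ad-KLF14 and 172 FPKM in Ad-GFP (ratio 0.393, interval 0.373 to 0.415). Mafk, a small partner protein of both, was at 64.2 FPKM in Ad-KLF14 and 17.6 FPKM in Ad-GFP (ratio 3.64, interval 3.32 to 4.01). Of the other small Maf partners, Maff had a ratio of 1.43 (interval 1.31 to 1.55) and Mafg a ratio of 0.831 (interval 0.712 to 0.969), so the partner genes went both ways.

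**Figure D5:**
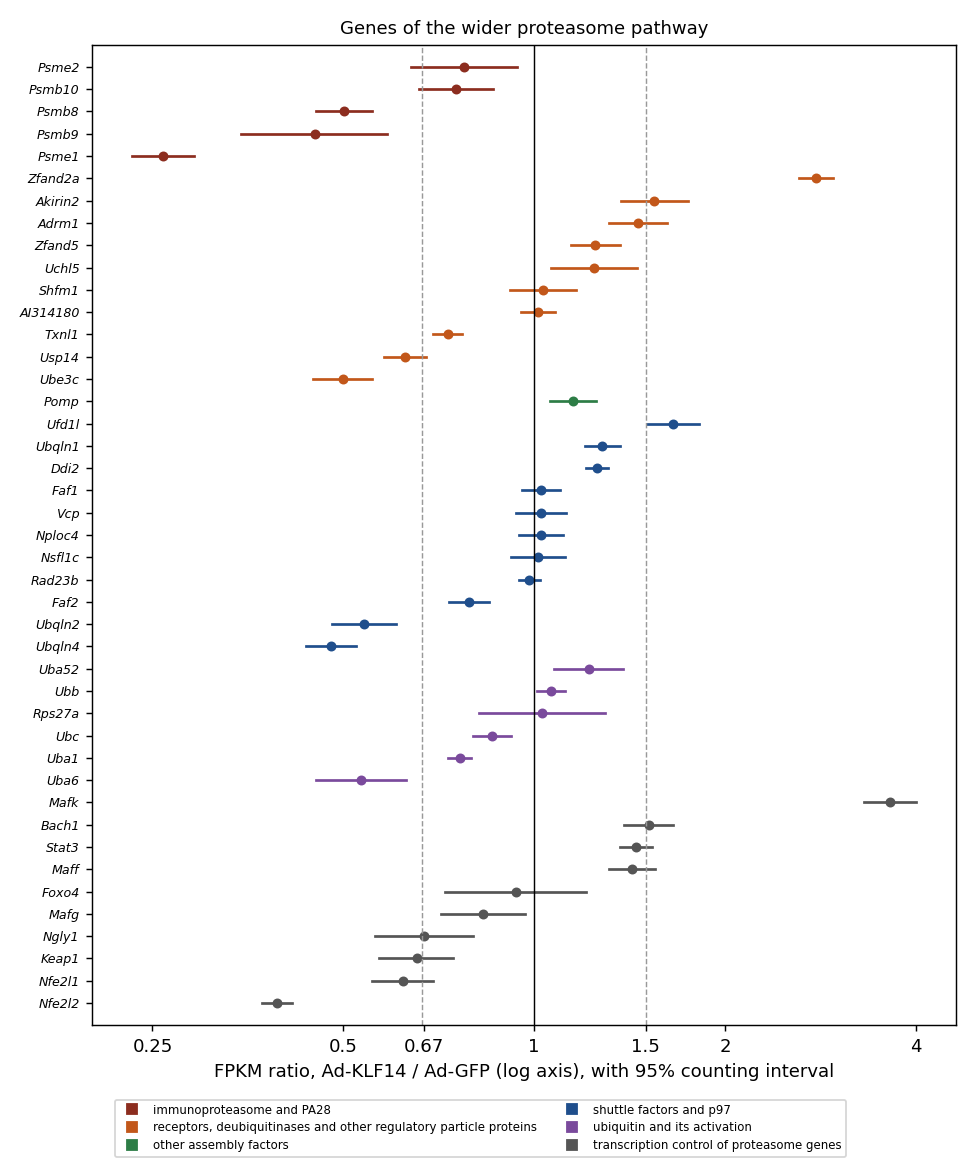
FPKM ratio of Ad-KLF14 over Ad-GFP (horizontal log axis) for 43 genes of the wider pathway, including the interferon-induced genes, grouped by list, with bars for the 95% counting interval and dashed lines at 1.5-fold. The 5 interferon-induced genes all lie below 1, and Mafk at 3.64 and Nfe2l2 at 0.393 are the ends of the transcription control list.

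Promoter sequence was looked at because Nfe2l1 and Nfe2l2 bind antioxidant response elements and because KLF proteins bind GC-rich boxes. RefSeq start sites on GRCm38.p6 gave 250 upstream bases for 36 of the 43 kept members, and for 7902 of all kept mRNA genes. The element core TGACNNNGC, searched on both strands, was in 5 of 36 members (13.9%) and in 14.4% of all these genes. The GC box GGGCGG was in 19 of 36 members (52.8%) and in 65.2% of all genes, the box CACCC in 12 members (33.3%) and in 61.0% of all genes, and CCAAT in 13 members (36.1%) and in 40.9% of all genes. The members with the element core were Psmb5, Psmb6, Psmc6, Psmd12 and Psmd9, whose ratios ran from 0.815 to 1.83, so both the lower Psmb5 and the higher Psmd9 hold it. A match describes letters in this window and not a bound site. Part of a window can lie inside a longer transcript of the gene, and such windows were counted all the same.

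Below are 3 windows with the element core, for the catalytic genes Psmb5 and Psmb6 and for Psmd9, the member with the highest ratio, followed by Psma5, the highest of the core, and Psmg4, a low assembly gene. Each is written 5′ to 3′ on the strand of its gene and ends at the base before the RefSeq start. Capitals mark TGACNNNGC and GGGCGG or their reverse complements, which overlap in Psmd9. Psma5 holds neither, and Psmg4 holds 1 GC box. Psmc6 and Psmd12 also hold the element core but are not shown. Windows that a GENCODE transcript of the gene covered by more than a short stretch were left out here. In the Psmb5 window such a transcript covers 27 bases.
Psmb5, chr14:54617996-54618245, minus strand: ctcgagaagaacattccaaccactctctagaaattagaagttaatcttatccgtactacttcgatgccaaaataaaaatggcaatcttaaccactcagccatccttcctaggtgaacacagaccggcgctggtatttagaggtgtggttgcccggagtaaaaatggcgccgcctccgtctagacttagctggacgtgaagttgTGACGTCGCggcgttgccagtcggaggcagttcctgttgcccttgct
Psmb6, chr11:70525107-70525356, plus strand: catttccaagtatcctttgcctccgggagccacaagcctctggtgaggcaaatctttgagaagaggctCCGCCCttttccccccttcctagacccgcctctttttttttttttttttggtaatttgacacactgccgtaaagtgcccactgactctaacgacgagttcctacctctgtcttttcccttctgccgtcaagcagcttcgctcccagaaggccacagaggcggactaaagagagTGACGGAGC
Psmd9, chr5:123227940-123228189, plus strand: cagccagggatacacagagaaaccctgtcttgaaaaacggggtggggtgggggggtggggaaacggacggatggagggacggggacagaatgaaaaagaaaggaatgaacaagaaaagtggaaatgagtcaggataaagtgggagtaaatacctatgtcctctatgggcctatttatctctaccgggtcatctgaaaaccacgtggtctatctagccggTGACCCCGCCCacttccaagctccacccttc
Psma5, chr3:108256676-108256925, plus strand: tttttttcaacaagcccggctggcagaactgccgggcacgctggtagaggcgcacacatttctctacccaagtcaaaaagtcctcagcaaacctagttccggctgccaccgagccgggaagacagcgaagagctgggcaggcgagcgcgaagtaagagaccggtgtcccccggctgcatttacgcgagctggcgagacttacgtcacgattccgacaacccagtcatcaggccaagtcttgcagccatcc
Psmg4, chr13:34162714-34162963, plus strand: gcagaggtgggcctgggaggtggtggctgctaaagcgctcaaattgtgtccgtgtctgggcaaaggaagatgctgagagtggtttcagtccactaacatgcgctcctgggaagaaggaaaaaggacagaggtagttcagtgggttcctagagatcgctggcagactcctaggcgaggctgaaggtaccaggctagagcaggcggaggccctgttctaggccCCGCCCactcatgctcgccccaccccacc

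A few members share exon bases with a neighbour on the opposite strand in the GENCODE annotation. Psmd13 shares 342 bases with Sirt3, which was at 8.86 FPKM in Ad-KLF14 and 10.7 FPKM in Ad-GFP, and Psmb7 shares 405 bases with Nek6, at 27.6 FPKM in Ad-KLF14 and 42.0 FPKM in Ad-GFP. Psmc3 shares 215 bases with Slc39a13, at 4.06 FPKM in Ad-KLF14 and 10.2 FPKM in Ad-GFP. These 3 neighbours were lower in Ad-KLF14, as was Htr2b, which overlaps Psmd1. AY074887, which shares 114 bases with Psma4, was higher, at 0.378 FPKM in Ad-KLF14 and 0.124 FPKM in Ad-GFP. Mlx, which overlaps Psmc3ip, was also higher. The neighbours 1700010K24Rik of Psma5, with 60 shared bases, and Gm12356 of Psmd3, with 17, have no values under those names here. Psmd9 shares 1849 bases with the noncoding Gm26745, which has no value under that name here, so its ratio is uncertain. On the same strand, Psmg3 shares 280 bases with Gm26938 and Psmd1 shares 301 with Gm21972. Neither neighbour has a value under that name here. Psmb5 shares 109 bases with Mir686 on the same strand, at 4.52 FPKM in Ad-KLF14 and 5.27 FPKM in Ad-GFP. What these overlaps add to the ratios was not tested. The pseudogene rows of Psmb5, Psmb6 and Psmb7 were at 0.273 FPKM or less in both libraries, and how reads matching several copies were counted is not given.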

How the data were processed

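Per the labels' protocols, total RNA from Trizol went into TruSeq RNA libraries, and Bowtie 0.12.2 and the build mm8 are named in the submitters' processing notes. The series' design text names other tools, BWA and TopHat with Cufflinks, and which of these made the values is not stated. The counting rule and gene models are not given in the sources used here. The authors deposited 1 table of FPKM values per library. Here the log2 ratio was computed on log2(FPKM + 1) for genes that averaged 1 FPKM or more, and folds are plain FPKM ratios. With 1 library per group no test was possible.

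Read numbers were recovered from ratios of FPKM, which are whole-number ratios for 99.95% of 16944 genes (relative tolerance 1e-11). Totals were 11151711 reads in Ad-KLF14 and 11311344 in Ad-GFP, the largest multiple that left whole gene lengths in over 90% of 1763 genes with many reads (94.6%, against at most 58.5% for larger multiples). Each gene got the smallest reads that give a whole length, divided by up to 6 where that length passed every GENCODE M21 transcript by over 10%. This was done for 5 members. Members had at least 49 to 9179 reads, lower limits that can make intervals too wide. The 95% intervals are exact Clopper-Pearson intervals for genes and normal approximations for sums, and cover counting error only. The recovery was run on simulated data, and the outcome is not given here. Those data had whole reads and each gene at its longest reference transcript. They did not cover reads split between places, so the division was not tested. Neither coordinates nor strand of the files were used. Promoter sequences are RefSeq's on GRCm38.p6.

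Members and lists were chosen with earlier results of these data known. Every member was named by rule. In full stand the catalytic genes and, in each class, the members with the highest and lowest log2 ratio and mean level. Of the pathway lists, genes at least 1.5-fold apart, the interferon-induced genes and Nfe2l1 are named by rule, except 1 gene that is not reported here and is counted only, and the other pathway genes were named after their values were seen. Pseudocount, filter, scaling and membership were varied. The comparison with genes in the members' level range, the split into lid and base and the sum without Psmd8 were added after seeing the data. Python 3.11.15, numpy 2.4.6, pandas 2.3.3 and scipy 1.17.1 were used.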

Additional observations from a re-analysis of the deposited data

How the results depend on the processing

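Over 11 alternative settings, 136 of 150 values for the set, its classes and the pathway lists kept their direction and stayed within a margin. The margin was counting error for summed ratios and 1.5 times for counts. For medians it was the median half-width of the single-gene intervals, which is not the counting error of a median. The median log2 ratio of the regulatory particle genes ranged from 0.24 to 0.30 and that of the assembly genes from −0.43 to −0.34. The ratio of summed FPKM was 1.13 for the core and 1.19 for the regulatory particle after scaling by a trimmed mean of log ratios, 1.14 and 1.20 after scaling to a sum of 1000000, and 1.13 and 1.18 with Klf14 left out of the total. Scaling by the upper quartile gave 1.17 for the regulatory particle. Removal of a running median along expression gave a median log2 ratio of 0.21 for all members, 0.17 for the core and −0.0033 for activators and inhibitor, which changed sign. With Psmb8, Psmb9, Psme1 and Psme2 put back in, the core median was −0.041 and the summed ratio of activators and inhibitor 0.693, both reversed, with a core sum ratio of 1.07 and 6 members at least 1.5-fold lower. These changes come from the added genes. The cause of the others was not tested. Of 647 values of single genes, 635 stayed within counting error, 12 moved and 0 of those at least 1.5-fold apart changed sign. These counts include values fixed in advance. Changes of filter and membership cannot alter the ratio of a single gene, and the pseudocount cannot alter a summed ratio. Both this count and the 136 of 150 above therefore overstate stability. Running median removal gives no sums. No paired analysis was possible because each group holds 1 library. Read numbers known only as lower limits can widen the intervals of members such as Psma3, and the lack of replicates limits every difference.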
